A study of Arabidopsis thaliana with 16 samples.

Results

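The 38 genes described here are classical auxin response genes of *Arabidopsis thaliana*: 29 Aux/IAA genes and 9 of the AUXIN RESPONSE FACTOR (ARF) genes, *ARF2*, *ARF5*, *ARF6*, *ARF7*, *ARF8*, *ARF10*, *ARF16*, *ARF17* and *ARF19*, out of 27655 genes in all. They were chosen by family and locus code, and other ARF genes are described only as part of the wider pathway. All 16 RNA sequencing libraries came from whole germinating seeds labelled *sweet1*, the name of a T-DNA insertion line of the sugar transporter gene *SWEET1* in the Col-0 background. Seeds were imbibed for 3 d at 4 °C, grown on ½MS medium at 22 °C in constant light, moved at 24 h after imbibition (HAI) to liquid ½MS and collected after 6 h of treatment at 30 HAI. The treatments were 5 µM abscisic acid (ABA) with 60 mM glucose (ABA + Glc), ABA alone, Glc alone and the control with neither, with 4 biological replicates each. The study describes the *sweet1* line as a null without detectable transcript. *SWEET1* was at 8.29–14.9 TPM (transcript abundance corrected for length and depth) in ABA + Glc, 12.98–17.1 TPM in ABA, 12.4–17.6 TPM in Glc and 10.8–13.3 TPM in the control, which goes against the label. The place of the insertion relative to the quantified transcript was not examined. The study reports that Glc lowered the ABA-responsive gene *RAB18* in WT and raised it in *sweet1*. Here *RAB18* was at 210, 197, 188 and 117 TPM in Glc and at 105, 69.7, 180 and 95.9 TPM in the control. Glc replicates 1, 2 and 3 lay above every control library, while Glc replicate 4 lay below control replicate 3, so the ranges overlap. The genotype was not tested further. The seeds are a mixture of embryo, endosperm and seed coat, 1 insertion line stands for the genotype, and WT libraries were not analysed here, so every comparison is between treatments of libraries labelled *sweet1*.

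Auxin acts on transcription through these families. ARF proteins bind auxin response elements upstream of their targets and either activate or repress them, and Aux/IAA proteins bind ARFs and recruit the corepressor TOPLESS. Auxin brings Aux/IAA proteins to the TIR1/AFB receptors, which mark them for breakdown and so free the ARFs, and because many Aux/IAA genes are themselves auxin-induced, the system feeds back on itself. In seeds, ARF10 and ARF16 are known to act with ABA in dormancy and in the inhibition of germination, and the small RNA miR160 restrains them.

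Replicate 3 of ABA and replicate 3 of ABA + Glc were left out of the fit, as in the gene table of the study, and their values are given beside the others. ABA + Glc replicate 3 stood apart from the other 15 libraries on the second principal component of log2 values, at -42.8 against -10.9 to 12.3. ABA replicate 3 lay near the other ABA libraries, at 33.1 on the first component (34.5 to 35.1) and 12.3 on the second (7.13 to 10.9). Correlations within the ABA group, with replicate 3 included, were 0.990 to 0.991. Transcript levels are the deposited TPM values (scaled between libraries by the authors in an unstated step), and their depth in reads is unknown. The labelled tissue was checked on its markers in the libraries of the fit: the 3 markers of germinating endosperm summed to 1593–1689 TPM in ABA + Glc, 1536–1621 TPM in ABA, 1578–1667 TPM in Glc and 1288–1589 TPM in control libraries. The 4 seed storage and oil body genes summed to 1872–2099 TPM in ABA + Glc and 2289–2564 TPM in ABA, against 353–545 TPM in Glc and 256–419 TPM in the control. Not all genes within each sum passed the test described below. Of the endosperm markers, *MAN7* rose with ABA + Glc (1.62 on the log2 scale against the control, limma adjusted p = 1.73e-10), ABA (1.502, 2.55e-10) and Glc (0.77, 1.28e-05), while *EXPA2* and *EPR1* did not pass against the control. Of the storage genes, *CRU2* had 0.19 with ABA (0.580) and the other 3 rose. Of the seed coat markers, *BAN* was at 0 in all 16 libraries, *TT12* reached 0.19 TPM and *MUM4* accounted for nearly all of a sum of 10.1 to 14.7 TPM. Markers of other tissues were also read. The 2 leaf photosynthesis genes were high, nearly all of it *RBCS1A*. They summed to 1850–1919 TPM in ABA + Glc, 2049–2142 TPM in ABA, 1893–1979 TPM in Glc and 2036–2088 TPM in the control. The pollen marker *VGD1* reached 0.06 TPM. In whole seeds, fewer cells of a type and less RNA per cell cannot be told apart, and the part of these tissue markers in the results below was not tested.

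What sets most Aux/IAA proteins apart is a short degron around the residues GWPP, the stretch that auxin docks onto the TIR1/AFB receptor. In the RefSeq annotation of TAIR10.1, 17 of the 29 Aux/IAA genes encoded GWPPV, 6 encoded GWPP with a different last residue (*IAA8*, *IAA10*, *IAA11*, *IAA12*, *IAA13* and *IAA27*) and 6 encoded neither (*IAA20*, *IAA30*, *IAA31*, *IAA32*, *IAA33* and *IAA34*). The class with a different last residue was set apart after the sequences had been read. The coding bases of the degron are printed for the Aux/IAA genes that passed a test, for *IAA17* as their close relative and for the most abundant members *IAA9* and *IAA8*, because the degron is what makes the product of a transcript sensitive to auxin. Each has 39 bases, 5′ to 3′ on the coding strand, with the 15 bases of the 5-residue core in capitals, and the coordinates of *IAA11* include an intron:
IAA16 (chr3:1289724-1289762, - strand): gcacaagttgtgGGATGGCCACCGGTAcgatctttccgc
IAA7 (chr3:8195565-8195603, + strand): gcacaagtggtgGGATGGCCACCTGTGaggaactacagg
IAA14 (chr4:8349472-8349510, - strand): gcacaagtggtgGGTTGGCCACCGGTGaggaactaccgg
IAA17 (chr1:1136935-1136973, + strand): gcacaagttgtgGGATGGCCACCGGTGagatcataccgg
IAA26 (chr3:5613656-5613694, - strand): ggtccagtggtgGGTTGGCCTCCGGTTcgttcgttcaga
IAA11 (chr4:14142546-14143038, + strand): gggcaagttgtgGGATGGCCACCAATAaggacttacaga
IAA9 (chr5:26255101-26255139, + strand): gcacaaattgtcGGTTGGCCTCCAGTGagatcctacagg
IAA8 (chr2:9637722-9637760, + strand): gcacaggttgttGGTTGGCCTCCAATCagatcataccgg
The core bases differed between all of these genes, and *IAA11* and *IAA8* are those whose core ends in isoleucine.

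Transcript levels of the 38 genes covered a wide range in germinating seeds labelled *sweet1*. *IAA9* was highest, with a mean of 122.9 TPM over the 14 libraries of the fit, then *IAA8* at 89.0 TPM, *ARF2* at 73.7 TPM and *IAA26* at 52.3 TPM. *IAA9*, *IAA8* and *IAA26* together made up 60.7% of the summed Aux/IAA level, and *ARF2* alone made up 48.0% of the summed level of the 9 ARF genes. In all, 13 genes averaged above 10 TPM, 17 more were high enough to be tested, and 8 were too low to test: *IAA31*, *IAA34*, *IAA3*, *IAA32*, *IAA29*, *IAA15*, *IAA5* and *IAA6*, none of which exceeded 0.86 TPM in any library. *IAA6* was listed at 0 in all 16. The test thus covered 21 of 29 Aux/IAA genes and 9 of 9 ARF genes. The Aux/IAA sum was 426 ± 6.5 TPM in ABA + Glc (SD, n = 3), 437 ± 8.4 TPM in ABA (n = 3), 426 ± 2.5 TPM in Glc (n = 4) and 451 ± 6.6 TPM in the control (n = 4). On the deposited scale, the Glc and ABA + Glc sums did not overlap with those of the control. The ARF sum was 149 ± 3.0 TPM in ABA + Glc, 138 ± 1.3 TPM in ABA, 162 ± 7.0 TPM in Glc and 159 ± 10.8 TPM in the control, and the ABA sums of the fit, at 137 to 140 TPM, lay below every control library, at 144 to 167 TPM, whereas the left-out ABA replicate 3, at 149.7 TPM, lay within the control range. Totals over all genes also differed between libraries, from 951008 to 1053766. The family sums were not brought to equal totals, and their differences were not tested.

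**Figure D1:**
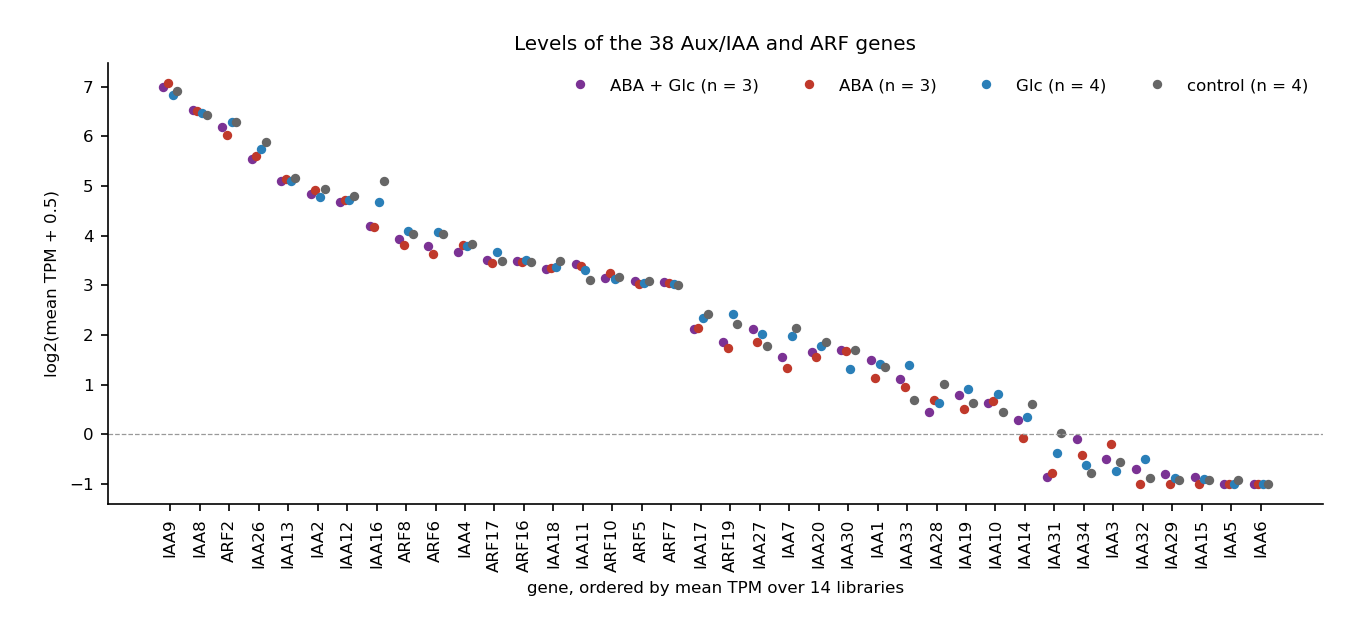
Mean level of each of the 38 genes under each treatment as log2(TPM + 0.5), ordered by the mean over 14 libraries; the dashed line marks 0.5 TPM. The order runs down to *IAA6* at 0, and the treatments lie close together for most genes, with *IAA16* the widest apart among those above 10 TPM.

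Each gene was compared between treatments with limma over all 17498 genes tested, and was called when its p-value, adjusted by Benjamini-Hochberg, was under 0.05 and its log2 fold change was 0.289 (1.22-fold) or more in size. Of the 30 genes tested, 7 passed in at least 1 of 6 contrasts: *IAA16*, *IAA7*, *IAA14*, *IAA26*, *IAA11*, *ARF19* and *ARF6*. With ABA against the control none rose and 5 fell (16.7%), against 10.4% and 13.3% of all genes tested that rose and fell, and the median log2 fold change of the 30 was -0.07, against -0.00 over all genes. With ABA + Glc against the control 1 rose (3.33%) and 4 fell (13.3%), against 6.95% and 10.1% of all genes, with medians of -0.10 and 0.00. Both shares that fell were near the background.

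Glc without ABA changed 1 of the 30 genes: none rose and *IAA16* fell, against 1.14% and 2.95% of all genes. For Glc on top of ABA (ABA + Glc against ABA), limma called none of the 30 in either direction, against 0.732% that rose and 1.91% that fell among all genes, and 2 of the 30 had an unadjusted p under 0.05. For ABA in the presence of Glc (ABA + Glc against Glc) none rose and 3 fell, against 5.43% and 6.01%. The interaction, which asks whether Glc acted differently on top of ABA than alone, passed for 1 gene, *IAA16*, in the positive direction and for none in the negative direction, against 1.79% and 1.94% of all genes. The 3 contrasts against the control share the control libraries. With the values of each library brought to an equal total, the share of rises among all ABA calls was 30.6% in place of 43.9%, and 8 of the 30 genes fell with ABA. At equal totals the median log2 fold change over all genes with ABA was itself -0.07, against -0.00 on the deposited scale. On the deposited scale, the median over genes of the ratio of a library to the geometric mean of all 16 was 0.999 to 1.009.

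**Figure D2:**
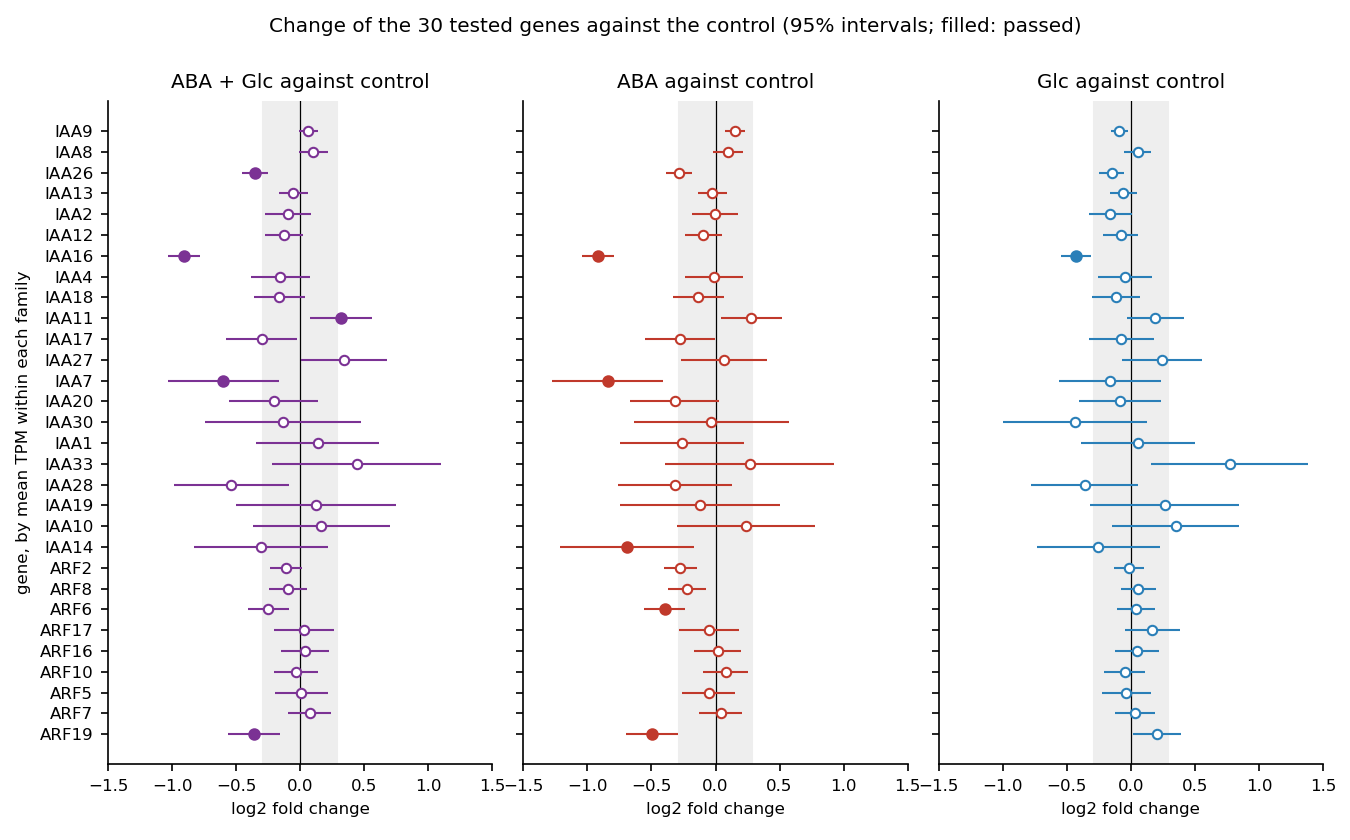
Log2 fold change on the log2(TPM + 0.5) scale of the 30 tested genes against the control, in ABA + Glc, ABA and Glc, with 95% intervals; filled circles passed, and the grey band is the minimum change of 0.289. *IAA16* stands far below 0 in all 3 panels with a narrow interval, and low genes such as *IAA14* and *IAA33* have wide intervals.

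*IAA16* was the member that responded most clearly, and it fell to about the same level with ABA whether or not Glc was present. Its protein is an auxin-degradable repressor, and gain-of-function alleles are known to lower the response of roots to both auxin and ABA. *IAA16* (AT3G04730, chr3:1288155-1290891, - strand) was at 17.3, 17.3 and 18.9 TPM in ABA + Glc (19.8 in replicate 3), at 17.0, 18.2 and 17.9 TPM in ABA (14.6 in replicate 3), at 25.8, 24.7, 25.3 and 24.3 TPM in Glc and at 34.4, 36.7, 31.4 and 32.8 TPM in the control. Every ABA and ABA + Glc library lay below every Glc library, which in turn lay below every control library. The log2 fold change was -0.91 ± 0.06 (SE) with ABA (limma adjusted p = 5.71e-09) and -0.91 ± 0.06 with ABA + Glc (1.07e-08) against the control. Glc alone lowered it by a smaller amount, -0.43 ± 0.05 (0.000231), and ABA + Glc against Glc gave -0.48 ± 0.06 (2.15e-05). Between ABA + Glc and ABA the difference was 0.01, with a 95% interval of -0.12 to 0.14. The interaction was 0.43 ± 0.08 (limma adjusted p = 0.0069): the drop that Glc gave without ABA was not seen on top of ABA.

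*IAA16* belongs with *IAA7* (AXR2), *IAA14* (SLR) and *IAA17* (AXR3) to a group of closely related Aux/IAA genes, known for dominant mutants with strong auxin resistance and, for *IAA14*, loss of lateral roots. Their coding sequences were 80.2% identical between *IAA7* and *IAA14* and 61.6% to 68.0% identical for the other 5 pairs, and reads shared between the close pair could blur their levels. *IAA7* (AT3G23050, chr3:8194606-8197161, + strand) fell with ABA. It was at 1.86, 3.33 and 2.17 TPM in ABA + Glc (2.37 in replicate 3), at 2.81, 2.02 and 1.25 TPM in ABA (2.14 in replicate 3), at 3.09, 4.04, 3.84 and 2.81 TPM in Glc and at 3.78, 3.71, 3.66 and 4.41 TPM in the control. All ABA and ABA + Glc libraries lay below all control libraries, whereas ABA + Glc and Glc overlapped. The log2 fold change against the control was -0.84 ± 0.20 with ABA (limma adjusted p = 0.00419) and -0.60 ± 0.20 with ABA + Glc (0.0405). The ABA + Glc call was lost without any 1 of the 4 control libraries (adjusted p = 0.0563 to 0.0926), without ABA + Glc replicate 1 (0.174) or 4 (0.125), and without the filter on low values (0.0637).

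*IAA14* (AT4G14550, chr4:8347822-8350263, - strand) was near the lower limit of the test. Its values were 0.51, 0.68 and 0.97 TPM in ABA + Glc (0.54 in replicate 3), 0.33, 0.25 and 0.76 TPM in ABA (0.50 in replicate 3), 1.02, 0.85, 0.41 and 0.82 TPM in Glc and 1.11, 0.99, 0.61 and 1.36 TPM in the control. ABA replicate 4 lay above control replicate 3, so the groups overlapped. The log2 fold change with ABA was -0.69 ± 0.25 (limma adjusted p = 0.0381), and the call was lost without control replicate 1, 2 or 4 (0.0666 to 0.1003) and without ABA replicate 1 (0.116) or 2 (0.156). *IAA17* did not pass: its log2 fold change was -0.30 under ABA + Glc (limma adjusted p = 0.102) and -0.27 under ABA (0.113), with ABA + Glc values of 4.28, 3.48 and 3.72 TPM against 5.30, 5.13, 4.14 and 4.78 TPM in the control. With all 16 libraries, *IAA17* passed under ABA + Glc at -0.37 (0.0331).

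Both *IAA7* and *IAA14* stand head to head with another Aux/IAA gene, with 0 protein-coding genes between them in TAIR10.1: *IAA2* and *IAA7* start 12.5 kb apart on chromosome 3, and *IAA14* and *IAA1* start 10.7 kb apart on chromosome 4. *IAA3* and *IAA17* form another such pair on chromosome 1, at 6.4 kb. *IAA2*, at 25.4 to 30.4 TPM in the ABA + Glc libraries of the fit and 29.2 to 30.4 TPM in those of ABA, against 26.9 to 34.3 TPM in the control, had a log2 fold change of -0.00 with ABA (95% interval -0.18 to 0.18). *IAA1* had -0.26 (-0.74 to 0.22, limma adjusted p = 0.402). Whether the genes of a pair differed in their response was not tested.

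*IAA26* (AT3G16500, chr3:5612203-5614803, - strand), whose product is also known as a phytochrome-associated protein, was the most abundant gene to pass. It was at 47.7, 43.9 and 46.5 TPM in ABA + Glc (40.6 in replicate 3), at 46.5, 49.8 and 49.0 TPM in ABA (43.0 in replicate 3), at 52.0, 55.1, 52.0 and 53.4 TPM in Glc and at 55.0, 61.8, 59.0 and 60.4 TPM in the control. ABA + Glc and ABA libraries lay below all Glc and control libraries, and Glc and control overlapped at 55.0 and 55.1 TPM. It fell with ABA + Glc, by -0.36 ± 0.05 (limma adjusted p = 4.33e-05). With ABA alone the change was -0.28 ± 0.05 (0.000268), just short of the minimum of 0.289, and it passed with all 16 libraries (-0.32), without control replicate 1 (-0.32), without ABA replicate 2 (-0.30) or without ABA replicate 4 (-0.29).

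*IAA11* (AT4G28640, chr4:14142063-14143969, + strand) was the one member to pass upwards. It encodes a core that ends in isoleucine, as the degron sequences above show, and is a relative of *IAA12* and *IAA13*. *IAA11* was at 11.2, 8.56 and 11.2 TPM in ABA + Glc (10.5 in replicate 3), at 9.22, 11.1 and 9.64 TPM in ABA (11.7 in replicate 3), at 10.5, 8.84, 8.04 and 10.2 TPM in Glc and at 7.80, 8.15, 9.01 and 7.59 TPM in the control. ABA libraries lay above the control, and ABA + Glc replicate 2 lay within it. The log2 fold change with ABA + Glc was 0.32 ± 0.11 (limma adjusted p = 0.04998), and with ABA 0.28 ± 0.11 (0.0662). The ABA + Glc call was lost in 9 of the 14 fits that left out 1 library (replicates 1 and 4 of ABA + Glc, 1 and 4 of ABA, 2 and 4 of Glc, and 1, 2 and 4 of the control, with adjusted p = 0.0512 to 0.188).

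**Figure D3:**
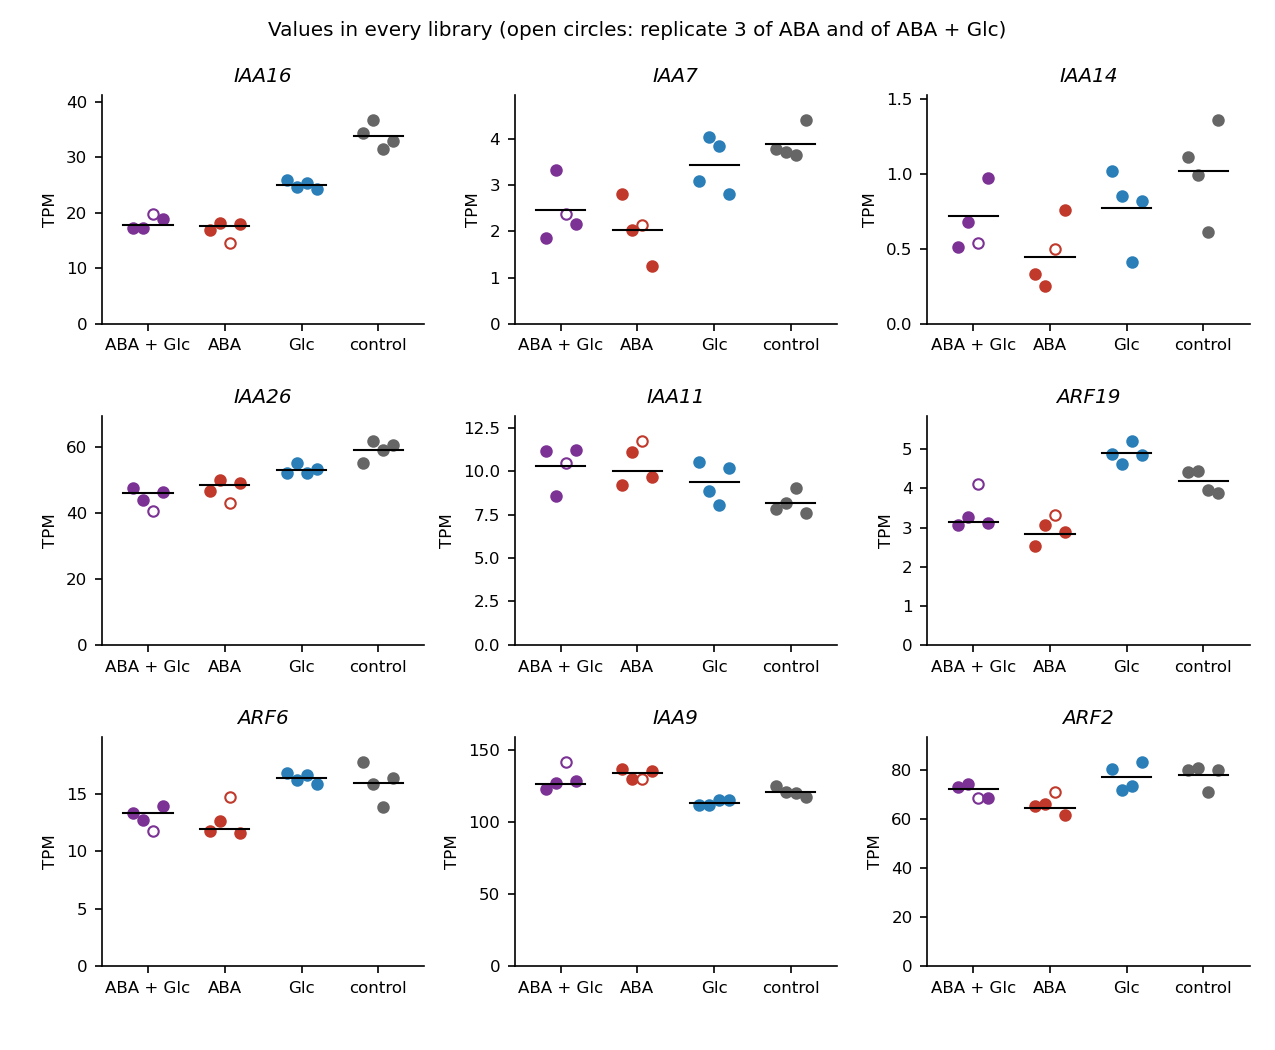
TPM of the 7 genes that passed and of *IAA9* and *ARF2*, the most abundant gene of each family, in every library, with a line at the mean of the libraries in the fit; open circles are replicate 3 of ABA and of ABA + Glc, which are not in the fit. The separation of the treatments is complete for *IAA16* between control, Glc and the ABA treatments, and partial for *IAA14* and *IAA11*.

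The most abundant member, *IAA9* (AT5G65670, chr5:26253408-26256544, + strand), a repressor known from tomato for its part in fruit set and leaf shape, moved little. It was at 123, 128 and 128 TPM in ABA + Glc (142 in replicate 3), at 137, 130 and 135 TPM in ABA (130 in replicate 3), at 112, 112, 116 and 115 TPM in Glc and at 125, 121, 120 and 117 TPM in the control. ABA libraries lay above and Glc libraries below the control, by small margins. The log2 fold changes were 0.15 ± 0.04 with ABA (limma adjusted p = 0.00319), 0.15 ± 0.04 for ABA + Glc against Glc (0.00663) and -0.09 ± 0.03 with Glc (0.120), all under the minimum of 0.289.

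By degron class, the 12 tested genes with GWPPV had a median log2 fold change with ABA of -0.27, from -0.91 to 0.15, and 3 fell; with ABA + Glc against the control their median was -0.23 and 3 fell. Among all genes tested 13.3% fell and 10.4% rose with ABA, and 10.1% fell and 6.95% rose with ABA + Glc, so that counts this small are a description of the classes only. The 6 genes with GWPP and a different last residue were all tested, had a median of 0.08 with ABA, from -0.10 to 0.28, and a median of 0.13 with ABA + Glc, with *IAA11* the only one to pass. The 3 tested genes without GWPP had -0.32 to 0.27 with ABA, and none passed. The difference between the classes was not tested, since the genes are not replicates of a class. Among genes that passed in no contrast, *IAA33* (no GWPP) had the highest log2 fold change with Glc, at 0.77 ± 0.29 (limma adjusted p = 0.123), with 1.58 to 2.42 TPM in Glc against 0.55 to 1.88 TPM in the control. *IAA28*, known for repression of lateral root initiation, had -0.54 ± 0.21 with ABA + Glc (0.0761), with 0.88, 0.96 and 0.75 TPM against 2.31, 1.33, 1.12 and 1.32 TPM in the control, groups that did not overlap.

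Among the ARF genes, the 5 activators, whose middle region is rich in glutamine, are *ARF5* (MONOPTEROS, needed for the embryonic root), *ARF6* and *ARF8* (flower maturation), and *ARF7* and *ARF19* (lateral roots and tropisms). Glutamine made up 6.98% to 15.3% of their residues, against 2.24% to 4.77% in *ARF2*, *ARF10*, *ARF16* and *ARF17*. *ARF19* (AT1G19220, chr1:6627683-6633133, - strand) fell with ABA both without and with Glc. It was at 3.06, 3.28 and 3.11 TPM in ABA + Glc (4.12 in replicate 3), at 2.52, 3.07 and 2.88 TPM in ABA (3.31 in replicate 3), at 4.88, 4.63, 5.21 and 4.85 TPM in Glc and at 4.43, 4.45, 3.97 and 3.88 TPM in the control. The libraries of the fit with ABA lay below all control libraries and all Glc libraries lay above them, while the left-out ABA + Glc replicate 3 lay within the control range. The log2 fold changes were -0.50 ± 0.10 for ABA against the control (limma adjusted p = 0.00074), -0.36 ± 0.10 for ABA + Glc against the control (0.0114) and -0.56 ± 0.10 for ABA + Glc against Glc (0.000556). With all 16 libraries ABA + Glc against the control was -0.27 and did not pass (0.0637).

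*ARF6* (AT1G30330, chr1:10685822-10690988, - strand) also fell with ABA, at a higher level. It was at 13.3, 12.7 and 13.9 TPM in ABA + Glc (11.8 in replicate 3), at 11.7, 12.6 and 11.6 TPM in ABA (14.7 in replicate 3), at 16.8, 16.2, 16.6 and 15.9 TPM in Glc and at 17.8, 15.9, 13.8 and 16.4 TPM in the control. The ABA libraries of the fit lay below the control, where replicate 3 was lowest, and ABA + Glc lay below all Glc libraries. *ARF6* fell with ABA, -0.40 ± 0.07 (limma adjusted p = 0.000579), and in ABA + Glc against Glc, -0.29 ± 0.07 (0.0124). The second of these sat at the minimum change and was lost without Glc replicate 1 (-0.28) or 3 (-0.28) or ABA + Glc replicate 2 (-0.26). ABA + Glc against the control gave -0.25 (adjusted p = 0.0216), short of the minimum, and passed without control replicate 3 (-0.31) or with all 16 libraries (-0.29).

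The closest relatives of these genes did not pass. *ARF7*, 63.7% identical to *ARF19* in coding sequence, had 0.04 with ABA (95% interval -0.13 to 0.21) and 0.07 with ABA + Glc (-0.10 to 0.24). *ARF8*, 60.4% identical to *ARF6*, was at 13.9, 12.8 and 13.95 TPM in ABA (15.6 in replicate 3) against 16.9, 15.4, 14.6 and 16.6 TPM in the control, a change of -0.22 ± 0.07 (limma adjusted p = 0.0225), under the minimum. Replicate 3 lay within the control range, and with all 16 libraries the change was -0.17 (0.0856). *ARF5*, the partner of *IAA12* in the embryo, had -0.05 with ABA (-0.26 to 0.15). The differences between relatives were not tested. *ARF6* and *ARF8* are known targets of miR167, and the mature miRNA from RefSeq (TAIR10.1, chr3:8108090-8108110, seed in capitals) is set beside its best match in each coding sequence, where capitals mark bases that pair with the miRNA:
miR167a-5p: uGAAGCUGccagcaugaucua
ARF6 site (chr1:10686478-10686498, - strand): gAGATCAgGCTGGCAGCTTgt
ARF8 site (chr5:14633841-14633861, + strand): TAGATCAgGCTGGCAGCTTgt
The miRNA paired with 17 of 21 bases in *ARF6* and 18 of 21 in *ARF8*. The gene of miR167a, the only miR167 gene looked up, is not among the genes of the files, so the level of the miRNA was not analysed here.

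*ARF2* (AT5G62000, chr5:24910191-24915395, + strand), the repressor that made up 48.0% of the ARF level, is known for limiting seed size and organ growth. It was at 73.3, 74.4 and 68.8 TPM in ABA + Glc (68.8 in replicate 3), at 65.5, 66.2 and 61.6 TPM in ABA (71.0 in replicate 3), at 80.6, 71.8, 73.6 and 83.2 TPM in Glc and at 80.1, 81.0, 71.2 and 80.0 TPM in the control. All ABA libraries lay below all control libraries, whereas Glc and control overlapped. The change with ABA was -0.27 ± 0.06 (limma adjusted p = 0.00193), just short of the minimum, and it passed without control replicate 3 (-0.32), without ABA replicate 2 (-0.29) and with equal sums (-0.35). ABA + Glc against ABA gave 0.16 ± 0.06 (adjusted p = 0.220).

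The 3 ARF genes that miR160 restrains did not pass in any contrast, among them *ARF10* and *ARF16*, whose products are tied to ABA in seeds. With ABA the log2 fold change was 0.08 for *ARF10* (95% interval -0.09 to 0.25), 0.02 for *ARF16* (-0.17 to 0.20) and -0.05 for *ARF17* (-0.29 to 0.18), and with ABA + Glc against the control it was -0.03, 0.04 and 0.03 for *ARF10*, *ARF16* and *ARF17* in turn. These intervals leave room for changes of up to 0.29 in size. The miRNA miR160a-5p is set beside its best match in the coding sequence of each of the 3 genes (RefSeq, TAIR10.1, chr2:16340282-16340302 for the miRNA, capitals as above):
miR160a-5p: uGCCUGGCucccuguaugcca
ARF10 site (chr2:12115741-12115761, + strand): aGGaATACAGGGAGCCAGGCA
ARF16 site (chr4:14704141-14704161, - strand): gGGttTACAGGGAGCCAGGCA
ARF17 site (chr1:29274189-29274209, + strand): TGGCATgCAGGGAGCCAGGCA
The miRNA paired with 19 of 21 bases in *ARF10*, 18 in *ARF16* with 1 further G:U pair, and 20 in *ARF17* with 1 G:U pair. The gene of miR160a, the only miR160 gene looked up, is not among the genes of the files either.

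The 250 bases upstream of the annotated start were read for the auxin response element TGTCTC, the variant TGTCGG that ARF proteins bind tightly, and the core ACGTG of the ABA response element, on both strands. TGTCTC was present in 9 of 38 members, against 10.9% of 27443 genes, TGTCGG in 8 of 38, against 4.16%, and ACGTG in 10 of 38, against 22.9%. Of the 7 members that passed, *IAA16*, *ARF19* and *IAA7* held at least 1 of these motifs, and none of them held TGTCTC. The upstream windows of these 3 genes are shown, from RefSeq with TAIR10.1 coordinates, 5′ to 3′ toward the start, with motifs in capitals (CCGACA is TGTCGG on the other strand, CACGT is ACGTG on the other strand):
IAA16 (chr3:1290892-1291141, - strand): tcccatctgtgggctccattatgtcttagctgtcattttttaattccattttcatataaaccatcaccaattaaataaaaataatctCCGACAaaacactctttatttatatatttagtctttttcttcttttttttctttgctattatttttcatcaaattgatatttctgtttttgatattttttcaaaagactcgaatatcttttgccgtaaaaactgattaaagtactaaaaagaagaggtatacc
ARF19 (chr1:6633134-6633383, - strand): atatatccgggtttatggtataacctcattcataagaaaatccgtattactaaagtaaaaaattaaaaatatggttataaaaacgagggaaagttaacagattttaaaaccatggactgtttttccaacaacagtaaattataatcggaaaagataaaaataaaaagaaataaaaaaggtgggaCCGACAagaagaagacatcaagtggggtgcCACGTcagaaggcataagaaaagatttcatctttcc
IAA7 (chr3:8194356-8194605, + strand): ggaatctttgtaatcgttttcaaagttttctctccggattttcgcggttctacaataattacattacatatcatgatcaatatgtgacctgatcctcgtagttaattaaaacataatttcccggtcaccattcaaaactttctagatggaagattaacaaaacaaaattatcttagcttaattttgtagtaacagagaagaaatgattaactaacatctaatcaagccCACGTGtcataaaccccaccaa
In *IAA7* the 2 matches to ACGTG overlap, since CACGTG reads the same on both strands. *IAA16* held TGTCGG, and *ARF19* held both TGTCGG and ACGTG. A match is only a description of the letters in this window, and *IAA14*, *IAA26*, *IAA11* and *ARF6* had none.

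The effect of ABA could be read in separate libraries without Glc (ABA against control) and with it (ABA + Glc against Glc). Over the 30 genes, the sign was the same in 22 (73.3%), against 72.6% of all 17498 genes. Pearson's r across the 30 genes was 0.61 (Spearman's rho 0.58), and 0.53 (0.54) without *IAA16*, against 0.83 (0.64) across all genes. Genes are not independent replicates, and the libraries within each contrast are shared by all genes. Of the 5 genes that fell with ABA alone, *IAA16*, *ARF19* and *ARF6* also fell in the presence of Glc, while *IAA7* had -0.44 ± 0.20 (limma adjusted p = 0.174) and *IAA14* -0.06 ± 0.25 (0.919). The interaction did not pass for *IAA7* (0.40, 95% interval -0.21 to 1.02) or for *IAA14* (0.64, -0.10 to 1.38).

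**Figure D4:**
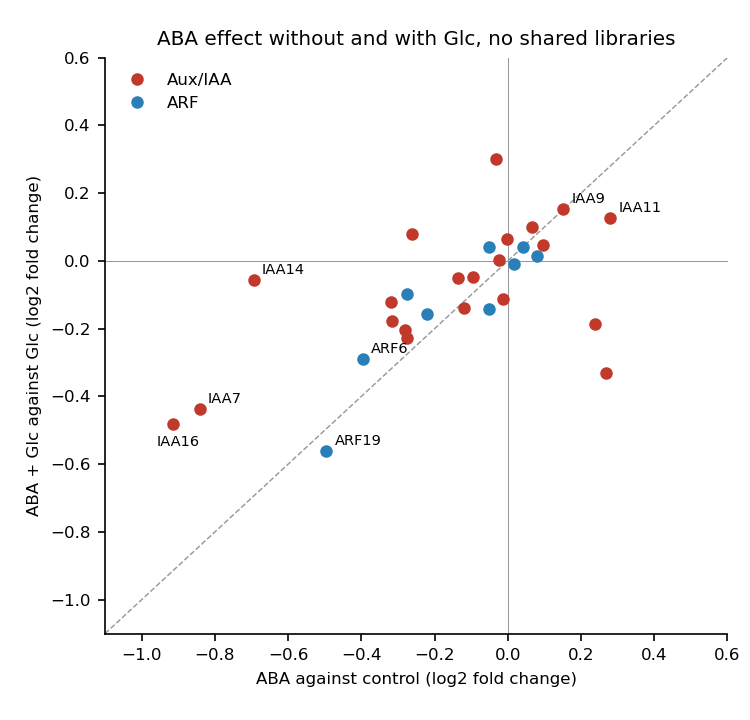
Log2 fold change of the 30 tested genes for ABA against control (horizontal) and ABA + Glc against Glc (vertical), with Aux/IAA genes in red, ARF genes in blue and the dashed line at equal change. *ARF19* lies near the line at -0.50 and -0.56, and *IAA16*, *IAA7* and *IAA14* lie above it, at smaller falls in the presence of Glc.

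The rest of the auxin pathway was followed in 8 lists with 82 genes, of which 43 were tested. Auxin transport held the most calls: of 15 genes 11 were tested, and 8 fell with ABA, 5 with ABA + Glc against the control and 4 in ABA + Glc against Glc, with no rise against the control, where 13.3%, 10.1% and 6.01% of all genes tested fell in these contrasts. The median change with ABA was -0.41, against -0.00 over all genes. Since the lists were chosen with earlier results of these data known, these counts only describe the lists. *AUX1*, the main auxin influx carrier, was at 22.4, 26.6 and 22.3 TPM in ABA + Glc, at 20.9, 22.8 and 18.1 TPM in ABA, at 36.1, 35.1, 35.8 and 33.7 TPM in Glc and at 41.6, 39.2, 40.8 and 44.1 TPM in the control, and the libraries with ABA lay below all others. Its log2 fold change with ABA was -0.996 ± 0.08 (limma adjusted p = 5.01e-08). *PIN2*, an efflux carrier of the root epidermis, fell by 0.70 on the log2 scale with ABA (3.37e-08). *ABCB4*, an auxin transporter of the root, fell under each treatment against the control (-0.57 in ABA + Glc, 6.31e-05; -0.64 in ABA, 1.23e-05; -0.55 in Glc, 0.000359), and its interaction was 0.63 ± 0.11 (0.00488), as for *IAA16* in the positive direction.

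The counts with ABA in the other lists stand beside the same background of 10.4% of all genes that rose and 13.3% that fell. Of the 6 TIR1/AFB receptor genes, *AFB1* fell with ABA (-0.58 ± 0.09, limma adjusted p = 9.56e-05) and the other 5 did not pass, whereas with equal sums 3 of the 6 fell. None of the 5 TOPLESS genes passed in any contrast, though 1 rose with ABA over all 16 libraries and 1 rose with Glc at equal sums. Of the 14 other ARF genes, 6 were tested, and 2 relatives of *ARF2* rose with ABA: *ARF11*, at 13.6, 13.5 and 14.3 TPM in ABA against 7.40, 6.70, 6.72 and 7.85 TPM in the control (0.90 ± 0.07, 6.90e-08), and *ARF18* (0.66 ± 0.10, 0.000129). Both groups of *ARF11* values were well apart, and *ARF11* also rose with Glc (0.35, 0.00449).

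Among genes that set the level of auxin itself, 5 of 14 synthesis genes were tested, and *TAA1* (-0.60, limma adjusted p = 0.00102) and *YUC8* (-0.75, 0.0457), which act in the 2 steps from tryptophan to auxin, fell with ABA. *YUC8* was low, at 0.72, 0.59 and 0.85 TPM in ABA against 1.86, 1.57, 1.01 and 1.84 TPM in the control. *TAR2*, the most abundant synthesis gene, did not pass, at 23.5, 23.6 and 25.0 TPM in ABA against 27.9, 28.4, 27.6 and 28.1 TPM. Of 8 GH3 genes, whose enzymes conjugate auxin to amino acids, 5 were tested: with ABA *GH3.6* rose (0.58, 4.72e-05) and *GH3.17* fell (-0.59, 0.00213), and *GH3.1* fell in ABA + Glc against Glc (-0.49, 0.0290). *ILR1*, which releases auxin from conjugates, rose with ABA (0.47, 0.00457), the only call with ABA among 3 genes of this kind. SAUR genes form a family that holds early auxin response genes, some of which promote cell expansion. Of 17 listed, only 2 were high enough to be tested, and *SAUR32* fell with ABA (-0.80, limma adjusted p = 0.0025). Whether *SAUR32* itself responds to auxin was not tested.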

How the data were processed

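The 16 libraries were grouped by the treatment in their labels. The authors trimmed reads with Trimmomatic 0.38, quantified Arabidopsis primary transcripts (v11) with kallisto 0.44.0 and used sleuth for their own tests. The sequencer differs between the labels and the study's methods. Each deposited file gives 1 score per gene, headed TPM, and the scaling the authors applied between libraries is not stated. The scores summed to 951008 to 1053766 per library, so they are not exact TPM. No read counts were used, so depth and counting error are unknown, and the replicates alone give the precision.

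Genes above 0.5 TPM in at least 50% of 14 libraries were fitted on the log2(TPM + 0.5) scale by limma 3.58.1 under R 4.3.3, using its mean-variance trend and a mean for each of the 4 treatments. Fold changes on this scale understate changes of low genes. P-values were adjusted over all 17498 genes, and the minimum change follows the study's 0.2 on the natural log scale. The count filter of the study could not be applied. The script was tested on simulated data. Values in every library are given for members that passed in at least 1 contrast and for the highest of each family. From each pathway list, up to 3 genes with the largest change among those that passed are named. *IAA1*, *IAA2*, *IAA17*, *IAA28*, *IAA33*, *TAR2* and the relatives of *ARF6* and *ARF19* were named with their values seen. The members and lists were chosen with earlier results of these data known. The 2 list symbols that did not match the annotation were dropped. Sequences and coordinates are those of RefSeq for TAIR10.1 (gene loci matched by locus code; Python 3.11.15, Biopython 1.88), and the files hold no coordinates. Alternatives were all 16 libraries, a replicate block, the groups of a contrast alone, pseudocounts of 0.1 and 1, no filter, a filter of 10 TPM, equal sums, and each of the 14 libraries left out in turn.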

Additional observations from a re-analysis of the deposited data

Results flagged for a closer look

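Control libraries gave the values that stood apart within a treatment. *IAA7* was at 4.41 TPM in control replicate 4, with the others at 3.66 to 3.78 TPM. *IAA10* was at 1.37 TPM in control replicate 2, with the others at 0.67 to 0.74 TPM. In control replicate 3, *IAA20* was at 2.42 TPM (others 3.36 to 3.42), *ARF2* at 71.2 TPM (80.0 to 81.0) and *ARF10* at 7.73 TPM (8.76 to 8.88), each the lowest of its group. These are 5 of 120 groups of 4 libraries examined, and chance alone flags about 1 in 20.

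The Glc effect on *IAA16* differed with and without ABA, by 0.43 on the log2 scale (limma interaction, adjusted p = 0.0069): it was 0.01 in the presence of ABA and -0.43 in its absence.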

How the results depend on the processing

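Of the 15 calls of members in the 6 contrasts, 10 kept their direction and their side of the threshold under every alternative in which the gene was tested, and none reversed. The other 5 were *IAA14* with ABA, *IAA7*, *IAA11* and *ARF19* with ABA + Glc against the control, and *ARF6* in ABA + Glc against Glc. With a filter of 10 TPM 2 members fell with ABA and 2 with ABA + Glc against the control, since the lower ones were not tested. With equal sums in all libraries 8 members fell with ABA, *IAA26*, *ARF8* and *ARF2* being added, and the median over all genes was -0.07. With all 16 libraries 1 rose with ABA (*IAA11*). The 1 member that rose with ABA + Glc against the control (*IAA11*) was 0 with the groups of the contrast alone, a pseudocount of 1, no filter, a filter of 10 TPM and equal sums, and the cause was not tested.

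Over the fits that left out 1 library, members that rose with ABA numbered 0 to 1 (1 without control replicate 3) and members that rose with ABA + Glc against the control 0 to 1. Over all genes, equal sums changed the share of rises among calls to 43.1% in place of 27.9% with Glc, 41.5% in place of 27.6% for ABA + Glc against ABA, and 33.1% in place of 47.5% for ABA + Glc against Glc. The interaction has no value for the groups of 1 contrast alone, since it uses all 4.

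With the replicate number as a block, members that rose with ABA + Glc against the control numbered 0, *IAA7* lost its call there (adjusted p = 0.0617), and *IAA28* (ABA + Glc, -0.62) and *ARF2* (ABA, -0.31) gained one. The numbers did not pair the libraries: deviations of same-numbered libraries correlated at -0.096 to 0.110 over 24 pairs, and those of different numbers at -0.146 to 0.164 over 72. Genes below about 1 TPM, such as *IAA14*, have too wide an interval here to show a change under 0.5 on the log2 scale.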
